A study of Mus musculus with 25 samples.

Results

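To compare where a repressive chromatin mark was found in 2 mutant settings, H3K9me3 peaks on chromosomes 1 to 19 were set side by side between mfn2-/- and HIF1dPA regenerating myofibers. All peaks of the 6 lists on these 19 autosomes were taken, with no measured value used to choose them. They numbered 7371, with 3100 in 3 mfn2-/- lists and 4271 in 3 HIF1dPA lists, out of 8160 peaks on all chromosomes of these lists and 55242 in the 24 lists of the series. The mfn2-/- myofibers had lost mitofusin 2, the protein of the outer mitochondrial membrane that fuses mitochondria, through a floxed allele. The HIF1dPA myofibers expressed a proline-to-alanine form of HIF1α, the oxygen-sensing transcription factor, which VHL cannot mark for degradation. In both groups a Pax7-Cre(ERT2) driver recombined the alleles in adult muscle stem cells, and a mito-Dendra2 allele labelled the myofibers that these cells formed, so other cells of the muscle kept unrecombined alleles. All mice of both groups had received tamoxifen at 75 mg/kg a day for 5 days and, 2 days later, 50 µL of 1.2% BaCl2 in the tibialis anterior muscle, whose Dendra2+ myofibers were taken at 14 days post injury (dpi). The study's legends describe the ChIP-seq replicates as biological, while the labels give no animal for a list. Age, sex and strain were not given in the sources used here. The 3 wild-type and 3 vhl-/- lists of the same mark are used below only for reference. Wild-type lists were the longest, with 2176, 2407 and 2239 autosomal peaks, and vhl-/- lists held 1039, 1122 and 1315. Reference values below are at full list length unless stated, and a longer list can hold more of any feature. No list held an autosomal peak assigned to Mfn2, Vhl or Hif1a, so the genotype labels could not be checked against these peaks.

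H3K9me3 is a methyl mark on histone H3 that is bound by HP1 proteins and is typical of compact, silent chromatin. It is laid down over repeats and transposons, and KRAB zinc finger proteins direct SETDB1 to such sequences through TRIM28. The genes that encode these zinc finger proteins lie in tandem clusters that carry the mark themselves, as do many other clusters of recently duplicated genes.

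Both groups of lists differed most over such clusters, and promoters of one of them illustrate what kind of sequence was involved. In the RefSeq tables (GRCm38.p6, the sequence of mm10), the 250 bases before each start were compared for genes on chromosome 13 whose promoters lay in regions with a peak in all 3 HIF1dPA lists and in 0 mfn2-/- lists. The windows of Zfp640, a zinc finger gene, Gm17353 and Gm46425 shared a run of 27 bases, and Gm40987 shared 13 of them. The shared run is in capitals, each sequence is 5′ to 3′ on the gene's own strand, and the positions are chr13:66680804-66681053 (minus), chr13:65896933-65897182 (plus), chr13:65950339-65950588 (plus) and chr13:65990997-65991246 (minus) in the order printed.
Zfp640: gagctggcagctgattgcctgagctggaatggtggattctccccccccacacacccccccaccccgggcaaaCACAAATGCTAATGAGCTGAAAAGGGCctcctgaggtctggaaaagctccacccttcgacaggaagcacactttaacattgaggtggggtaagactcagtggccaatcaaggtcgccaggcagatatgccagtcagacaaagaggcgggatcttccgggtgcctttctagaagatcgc
Gm17353: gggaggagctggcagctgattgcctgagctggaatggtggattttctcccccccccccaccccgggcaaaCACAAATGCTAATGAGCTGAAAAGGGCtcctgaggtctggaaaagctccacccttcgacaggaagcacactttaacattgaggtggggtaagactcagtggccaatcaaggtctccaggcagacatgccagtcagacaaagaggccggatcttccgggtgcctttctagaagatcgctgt
Gm46425: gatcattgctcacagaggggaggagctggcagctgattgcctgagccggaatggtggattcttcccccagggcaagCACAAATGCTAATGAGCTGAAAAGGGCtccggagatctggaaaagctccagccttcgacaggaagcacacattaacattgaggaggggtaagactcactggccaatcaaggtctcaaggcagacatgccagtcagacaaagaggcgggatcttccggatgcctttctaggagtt
Gm40987: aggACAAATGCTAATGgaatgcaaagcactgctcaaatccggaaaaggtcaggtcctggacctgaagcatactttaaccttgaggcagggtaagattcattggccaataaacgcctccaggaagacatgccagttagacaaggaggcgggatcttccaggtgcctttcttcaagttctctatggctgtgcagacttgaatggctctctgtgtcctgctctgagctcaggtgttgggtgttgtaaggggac
The run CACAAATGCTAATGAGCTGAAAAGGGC, searched on both strands, was found in 7 of 32851 promoter windows (0.0213%), all 7 on chromosome 13, and ACAAATGCTAATG in 11 (0.0335%), 10 of them on chromosome 13. The run of 27 bases was itself taken from the windows printed here. Of its 7 windows, 4 lay in regions found in all 3 HIF1dPA and 0 mfn2-/- lists, including the overlapping ones of Gm32476 and Gm46425. Peaks overlapped 3, 1 and 2 of the 7 in HIF1dPA replicates 1 to 3 and 0 in each mfn2-/- list. The Gm40987 window was covered over all 250 bases in each HIF1dPA list and over 0 bases in each mfn2-/- list, and the 3 wild-type and 3 vhl-/- lists also had 0 bases there. Coverage of the other windows was partial, at 0, 0 and 250 bases for Zfp640, 0, 56 and 250 for Gm17353, and 250, 0 and 0 for Gm46425 in HIF1dPA replicates 1 to 3, with 0 bases in each mfn2-/- list. So the regions around these starts separated the groups, but of the 4 windows themselves only that of Gm40987 did. Near-identical copies share reads, and how reads that map to several places were treated was not given in the sources used here, so which copy a peak belongs to is uncertain throughout these clusters.

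Few promoters carried the mark at all. Of 31396 autosomal windows, 31338 had no peak in any of the 6 lists. The windows with a peak numbered 5, 2 and 7 in the mfn2-/- lists and 26, 21 and 15 in the HIF1dPA lists, so every HIF1dPA list had more (exact permutation test, two-sided, p = 0.1, the smallest that 3 against 3 lists can give). Wild-type lists had 35, 28 and 33, and vhl-/- lists 14, 15 and 13. A peak in all 3 HIF1dPA and 0 mfn2-/- lists was found at 2 windows (0.00637%), Gm40987 and Duxf3, and the reverse at 0. Duxf3 belongs to the Dux family, whose founding member is an activator of the early embryonic genome, and its window at chr10:58233090-58233339 (minus strand) is printed with its CG dinucleotides in capitals, since these are the sites that DNA methylation uses.
Duxf3: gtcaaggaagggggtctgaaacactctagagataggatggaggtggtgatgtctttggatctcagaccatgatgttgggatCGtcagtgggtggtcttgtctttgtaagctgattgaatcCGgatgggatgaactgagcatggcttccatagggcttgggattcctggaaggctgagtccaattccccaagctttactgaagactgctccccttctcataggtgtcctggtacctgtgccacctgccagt
Each HIF1dPA list covered all 250 bases of it. The wild-type lists covered 250, 134 and 250 bases, and the vhl-/- lists 0, 250 and 0. The core of the HIF binding motif (ACGTG or GCGTG, searched on both strands) occurred in 12679 of 32851 promoter windows (38.6%) and in 0 of the 9 that overlapped a region found in all 3 HIF1dPA and 0 mfn2-/- lists. These 9 are not independent, since windows of Gm32476 and Gm46425 overlap and those of Zfp640, Gm17353 and Gm46425 resemble one another. The 2 shares were therefore not tested against each other.

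HIF1dPA lists were longer in base pairs, and this held at equal list length, while the number of peaks overlapped between the groups. The mfn2-/- lists held 1014, 780 and 1306 autosomal peaks (1033 ± 264, SD, n = 3) and the HIF1dPA lists 1542, 1588 and 1141 (1424 ± 246, n = 3), a ratio of 1.39 (exact permutation test on log2, p = 0.2). The longest mfn2-/- list thus held more peaks than the shortest HIF1dPA list. The peaks covered 0.893, 0.719 and 0.938 Mb in mfn2-/- and 1.463, 1.504 and 1.116 Mb in HIF1dPA lists, 1.598 times as much (exact permutation p = 0.1). With each list cut to its 780 strongest peaks, they covered 0.740, 0.719 and 0.624 Mb against 0.957, 0.987 and 0.878 Mb (ratio 1.36, exact permutation p = 0.1). Their median width was then 632, 623 and 608.5 bp in mfn2-/- and 801, 850 and 687 bp in HIF1dPA lists (exact permutation p = 0.1), so the strongest HIF1dPA peaks were the wider ones. At full length the median widths of 580 to 623 bp and 610 to 646.5 bp overlapped (exact permutation p = 0.3). Read totals are not in the lists, so depth is unknown and differences in length are differences in what was called.

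**Figure D1:**
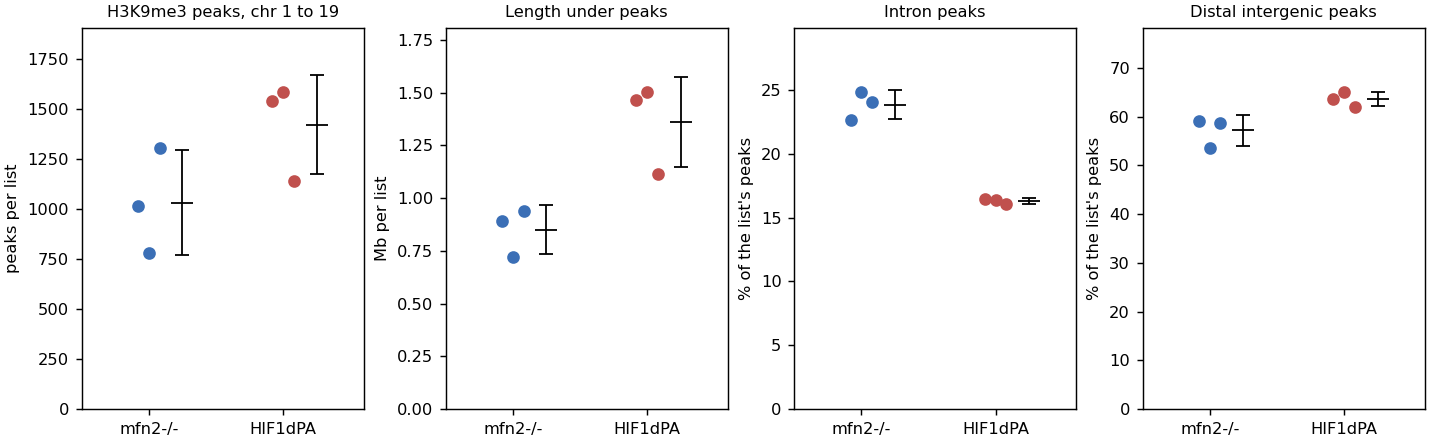
Autosomal H3K9me3 peaks per list, Mb under peaks, and the percent of peaks in introns and in distal intergenic sequence, for 3 mfn2-/- (blue) and 3 HIF1dPA (red) lists, with the mean and SD as bars. Peak numbers overlap between the groups, whereas covered length, the intron share (22.7% to 24.9% against 16.0% to 16.5%) and the distal share do not.

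Introns held a larger part of the mfn2-/- lists and distal intergenic sequence a larger part of the HIF1dPA lists. Of the peaks, 22.7%, 24.9% and 24.04% were intronic in mfn2-/- (23.9% ± 1.11, n = 3) and 16.5%, 16.4% and 16.0% in HIF1dPA (16.3% ± 0.227, n = 3), a difference of -7.57 percentage points (exact permutation p = 0.1, 0.35 adjusted over 7 classes). The groups did not overlap, and at equal list length the shares were 21.9%, 24.9% and 23.1% against 13.6%, 15.9% and 14.9%. Among peaks with a score of at least 100 (the score being -log10 of the p-value, multiplied by 10) the difference shrank to -0.427 points (exact permutation p = 0.6), so it was not seen in the strongest peaks. Distal intergenic peaks made up 59.2%, 53.6% and 58.7% of mfn2-/- and 63.7%, 65.1% and 62.1% of HIF1dPA lists (exact permutation p = 0.1). Promoter peaks, within 3 kb of a start, overlapped at 11.8%, 14.0% and 10.8% against 13.9%, 12.6% and 15.1% (exact permutation p = 0.3). At equal list length they were 12.9%, 14.0% and 12.7% against 17.9%, 16.3% and 17.9%, higher in every HIF1dPA list (exact permutation p = 0.1).

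Intronic peaks lay in long genes in both groups. The genes hosting them had a median span of 146, 126 and 129 kb in the mfn2-/- lists and 92.1, 103 and 93.8 kb in the HIF1dPA lists, against 17.5 kb over all protein-coding genes in RefSeq. That reference is not weighted by intron length, and longer genes offer more intron to fall in, so a preference for long genes was not tested. The excess of introns in mfn2-/- was seen among regions found in only 1 list, where 523 of 2022 (25.9%) were intronic in mfn2-/- and 499 of 2779 (17.96%) in HIF1dPA. It was also seen among those found in 2 or 3 lists of only 1 genotype, with 28 of 126 (22.2%) against 33 of 287 (11.5%).

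Lists of a genotype resembled each other more than lists of the other genotype, although most regions were listed once. The Jaccard index, which divides the length under peaks of both lists by the length under peaks of either, averaged 0.154 within genotypes and 0.0703 between them (exact test over 10 splits of the 6 lists, p = 0.1, the smallest it can give). It was 0.127 to 0.166 among mfn2-/- lists, 0.160 to 0.168 among HIF1dPA lists, and 0.0617 to 0.0886 across the groups, so the ranges did not meet. At equal list length the means were 0.186 and 0.0830. Against the reference genotypes, mfn2-/- lists had a mean index of 0.0858 with wild-type and 0.0796 with vhl-/- lists, while HIF1dPA lists had 0.124 and 0.175. Of the mfn2-/- peaks, 22.3%, 30.1% and 20.4% overlapped a HIF1dPA peak, and of the HIF1dPA peaks 15.5%, 15.4% and 18.5% overlapped an mfn2-/- peak. At equal list length these shares were 21.5%, 26.8% and 22.7% and 21.9%, 21.4% and 21.5%, and the groups overlapped.

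**Figure D2:**
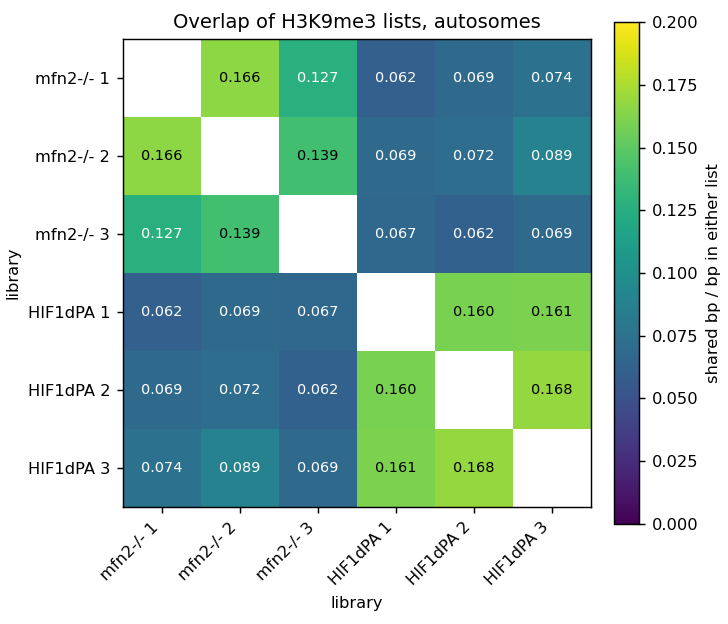
Jaccard index of covered base pairs for each pair of the 6 autosomal lists, printed in the cells and shown by colour. Pairs within a genotype lie at 0.127 to 0.168 and pairs across genotypes at 0.0617 to 0.0886.

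Merging overlapping peaks of the 6 lists gave 5582 regions, of which 4801 (86.0%) had a peak in 1 list. A peak in all 3 mfn2-/- and 0 HIF1dPA lists was found at 32 regions (0.573%), the reverse at 91 (1.63%), and all 6 lists shared 51 (0.914%). The shared regions were 39.2% of the 130 found in all mfn2-/- lists and 28.2% of the 181 found in all HIF1dPA lists. At equal list length 26, 69 and 42 of 3334 regions were counted, or 0.78%, 2.07% and 1.26%. Leaving out mfn2-/- replicate 1, 2 or 3 raised the 32 to 63, 79 and 59, and leaving out HIF1dPA replicate 1, 2 or 3 raised the 91 to 157, 147 and 182, because a set then needed 2 lists in place of 3. The 91 regions were not scattered, since joining those within 500 kb left 32 loci, one of which held 40 regions, whereas the 32 mfn2-/- regions formed 23 loci and the 51 shared regions 25. Chromosome 13 held 43 of the 91 (47.3%), and chromosome 5 held 8 of the 32. Regions merged over several lists are wider by construction, and the median region width was 1678 bp for mfn2-/-, 2184 bp for HIF1dPA and 3051 bp for the shared regions. Any part of a zinc finger gene lay over or within 100 kb of 25 shared regions (49.0%), 25 HIF1dPA regions (27.5%) and 8 mfn2-/- regions (25%), against 15.1% of all regions. These shares count regions and not loci, and neighbouring regions of 1 locus, such as the several next to Zfp640, are not independent. The reference of 15.1% is made mostly of regions with a peak in 1 list, and no share by locus was computed.

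The lists of the other genotypes, which had no part in choosing the regions, held the sets unequally. Of the 91 HIF1dPA regions, 89 had a peak in at least 1 vhl-/- list and 47 in all 3, while 44 had one in at least 1 wild-type list and 32 in all 3. Of the 32 mfn2-/- regions, 20 had a peak in at least 1 wild-type list and 10 in all 3, while 9 had one in a vhl-/- list and 0 in all 3. All 51 shared regions had a peak in at least 1 list of each. Over all 5582 regions, 18.3% had a peak in a wild-type and 15.1% in a vhl-/- list. The shares with a peak in all 3 lists were 4.82% for wild-type and 2.79% for vhl-/-. Peaks of H3K27me3, the Polycomb mark, overlapped few of the regions, at 2 of the 32 in mfn2-/- and 2 of the 91 in HIF1dPA lists of that mark, with 10 and 9 of the 51 shared regions.

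The 32 mfn2-/- regions comprised 15 distal, 7 intronic, 7 promoter, 2 exon and 1 5′ UTR region, and those with the highest scores included introns of protein-coding genes. The first was in intron 15 of 34 of Drosha (ENSMUSG00000022191), which encodes the nuclease that cuts primary microRNAs (chr15:12872545-12873620). Its peaks covered 973, 986 and 794 bp in the mfn2-/- lists and ranked 34, 21 and 40 by score, and the HIF1dPA, wild-type and vhl-/- lists had 0 bp. The next lay in intron 1 of 8 of Ppp2r2b, a regulatory subunit of protein phosphatase 2A (chr18:42975284-42976575), with 1202, 1288 and 1203 bp and ranks of 78, 43 and 28, and again 0 bp in all lists of the other 3 genotypes. These were 2 of 10 regions of the 32 that had no peak in any wild-type or vhl-/- list. Another, in intron 5 of 6 of Commd10 (chr18:46997603-46998544), a member of the COMMD family of endosomal trafficking proteins, covered 819, 836 and 942 bp and was also in 2 wild-type lists.

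Other mfn2-/- regions lay among gene copies. The region at the Gm10330 promoter (chr12:23780354-23782881) covered 2316, 1793 and 2109 bp in the mfn2-/- lists, 0 bp in HIF1dPA and was in 1 vhl-/- list. A region near Zfp873, a zinc finger gene (chr10:82006399-82010101), covered 2532, 1720 and 2044 bp against 0 bp, and was in 3 wild-type and 2 vhl-/- lists. Regions assigned to Gm10354 (chr5:14993975-14998257) and to Gm21847 (chr5:15459581-15466140 and chr5:15480821-15488588) belonged to a run on chromosome 5 described below, and that of Zfp97 (chr17:17139511-17141407), in intron 1 of 3, was in 2 vhl-/- lists.

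The 91 HIF1dPA regions comprised 60 distal, 16 promoter, 11 intronic and 4 exon regions. The one with the highest scores lay between genes next to Ly6c2 (ENSMUSG00000022584), which encodes a surface protein of monocytes (chr15:75085049-75087456). It covered 2059, 2342 and 2126 bp and ranked 8, 35 and 6 in the HIF1dPA lists, with 0 bp in mfn2-/-, and was in all 3 wild-type and all 3 vhl-/- lists. A region 1 to 2 kb from the start of Aida, an axin-interacting gene (chr1:183299003-183299820), covered 703, 818 and 717 bp, had 0 bp in mfn2-/-, and was likewise in all 6 reference lists. On chromosome 13, regions next to Zfp640 (chr13:66696243-66701119, with 3272, 4877 and 2638 bp) and next to the pseudogene Cbx3-ps1 (chr13:65900202-65903765) were in all 3 vhl-/- and 0 wild-type lists. This pattern of 3 vhl-/- and 0 wild-type lists held for 24 of the 91 regions, most of them close together on chromosome 13. Its share over all regions was not computed. Of the 91 regions, 1 was in no list of either genotype. A region next to Ighv1-75, an immunoglobulin heavy chain segment (chr12:115819867-115827397), covered 6362, 7531 and 7391 bp and was in 2 vhl-/- and 0 wild-type lists.

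The peaks common to all 6 lists were headed by satellite-rich and zinc finger loci, some at unequal width. Gm10801, a predicted gene in a satellite repeat of chromosome 2 (chr2:98661690-98663400), ranked 4, 1 and 1 in mfn2-/- and 13, 3 and 2 in HIF1dPA lists, and Gm5614 (chr9:35304774-35305924) ranked 5, 3 and 3 and 4, 5 and 3. The region at the promoter of Zfp998 (chr13:66429119-66439004) covered 6458, 5530 and 5157 bp in mfn2-/- and 8967, 9026 and 8784 bp in HIF1dPA lists, where it ranked first in each. Zfp982 (chr4:147493961-147500290) was also wider in every HIF1dPA list, at 5165, 5632 and 5429 bp against 1970, 3646 and 2283 bp. On the same chromosome, a region of Zfp985 (chr4:147573563-147579449) was wider in every mfn2-/- list, with 3542, 2879 and 3661 bp against 1263, 1979 and 1262 bp. Over the 51 shared regions, 9 (17.6%) were wider in every HIF1dPA and 5 (9.8%) in every mfn2-/- list. By rank of score within the list the balance was the other way, with 5 higher in every HIF1dPA and 13 in every mfn2-/- list. These ranks were not scaled to list length, and a longer list can place a region lower. The part of list length in this balance was not tested. Chl1, a neural adhesion molecule, held a shared region in intron 4 of 26 (chr6:103648528-103649786), ranking 11, 11 and 8 and 11, 41 and 7. The regions of Gm5614 and Chl1 also overlapped a peak in every mfn2-/- and HIF1dPA list of H3K27me3, so they were not particular to H3K9me3. That of Gm10801 did so in all but HIF1dPA replicate 1. The Zfp998 region did so only in HIF1dPA replicate 3, and those of Zfp982 and Zfp985 in none.

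Summed over 1 Mb windows, a scale chosen after the lists were seen, the largest differences favoured HIF1dPA. Covered length was higher in every HIF1dPA list in 94 of 1542 windows with a peak (6.1%) and in every mfn2-/- list in 44 (2.85%). The window at chr1:85000000-85999999, which holds genes of the Sp100 family of nuclear body proteins, had 0 kb in each mfn2-/- list and 117, 141 and 163 kb in HIF1dPA lists. Wild-type lists had 225 to 234 kb there and vhl-/- lists 110 to 119 kb, so among the 4 genotypes mfn2-/- alone had none listed. The strain of each genotype was not given, and its part in this and the other windows that 1 genotype lacked was not tested. The window led by Zfp640 (chr13:66000000-66999999) had 17.2, 12.7 and 12.4 kb in mfn2-/- and 110, 103 and 76.7 kb in HIF1dPA lists. Here wild-type lists, at 8.87 to 11.5 kb, lay below each mfn2-/- list, and vhl-/- lists had 81.6 to 99.6 kb. Its neighbour (chr13:65000000-65999999) had 20.9, 21.8 and 22.01 kb against 69.3, 73.5 and 63.8 kb. The window of 54 Ighv segments (chr12:115000000-115999999) had 0, 0.543 and 0.541 kb in mfn2-/- and 61.2, 71.5 and 56.0 kb in HIF1dPA lists, with 0.538 to 2.55 kb in wild-type and 38.7 to 49.6 kb in vhl-/- lists. A window led by Platr16 (chr4:145000000-145999999) had 52.5, 62.5 and 42.8 kb against 79.0, 101 and 73.0 kb.

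**Figure D3:**
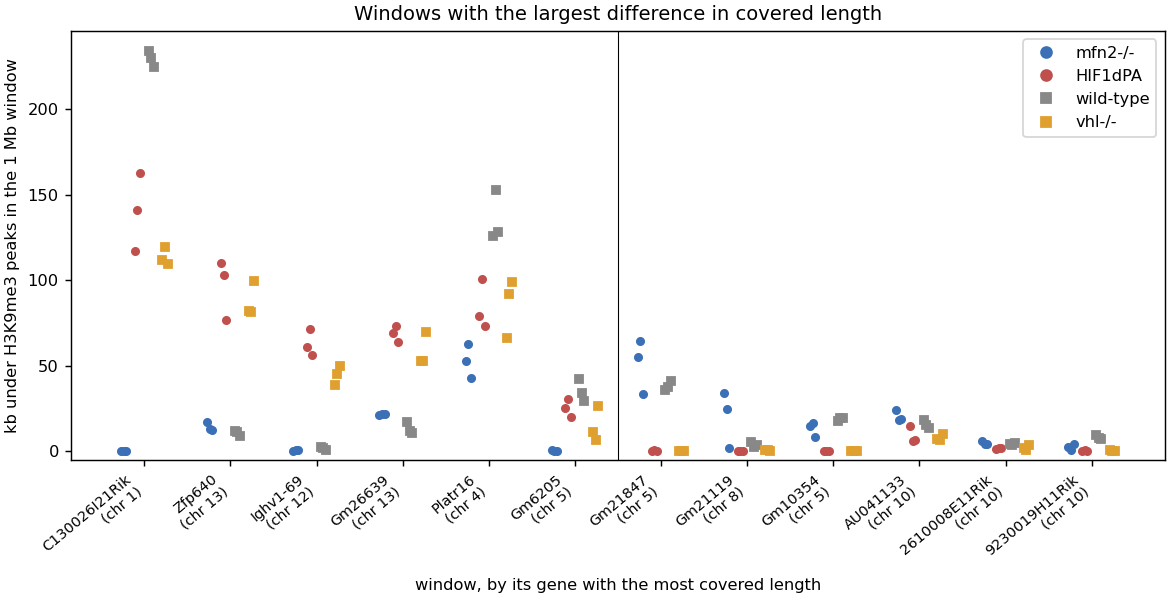
Kb under autosomal H3K9me3 peaks in the 1 Mb windows with the largest difference, 6 higher in HIF1dPA on the left and 6 higher in mfn2-/- on the right, each point being 1 list of mfn2-/- (blue), HIF1dPA (red), wild-type (grey) or vhl-/- (yellow). In the window of C130026I21Rik the mfn2-/- lists sit at 0 and the HIF1dPA lists between 117 and 163 kb, and in that of Gm21847 the mfn2-/- lists lie between 33.4 and 64.2 kb.

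These 5 windows were chosen as those with the largest excess in HIF1dPA, so lists without them had to be closer in length. Together the windows had 90.6, 97.6 and 77.8 kb in mfn2-/- and 437, 490 and 432 kb in HIF1dPA lists. Outside them the lists covered 803, 622 and 860 kb and 1026, 1014 and 684 kb, which overlapped, with a ratio of 1.18 in place of 1.598. They also held 58 of the 91 HIF1dPA regions, which left 33 elsewhere. The lower intron share of the HIF1dPA lists was still present outside the windows, at 18.2%, 17.9% and 18.02% against 23.2%, 25% and 24.2% in mfn2-/-.

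Windows higher in mfn2-/- were smaller and led by a run on chromosome 5 with 3 Speer genes, a testis-expressed family. The window at chr5:15000000-15999999 had 54.9, 64.2 and 33.4 kb in mfn2-/- and 0, 0.539 and 0 kb in HIF1dPA lists, and that at chr5:14000000-14999999 had 14.7, 16.3 and 8.49 kb against 0 kb in each. Wild-type lists had 35.9 to 40.9 kb and 17.6 to 19.4 kb in these windows and vhl-/- lists 0 kb in both. The window led by Gm21119 (chr8:20000000-20999999) had 33.8, 24.7 and 2.13 kb against 0 kb, so its mfn2-/- replicate 3 lay far below the others. The window of AU041133 and Zfp873 (chr10:82000000-82999999) had 23.97, 18.3 and 18.8 kb against 14.96, 5.91 and 6.64 kb.

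By assigned gene, 27 of 2879 genes (0.938%) had a peak in all 3 mfn2-/- and 0 HIF1dPA lists, 79 (2.74%) the reverse, and 77 in all 6. At equal list length these were 29 (1.53%), 46 (2.42%) and 60 of 1898 genes. Without mfn2-/- replicate 1, 2 or 3 the 27 became 59, 104 and 52, and without HIF1dPA replicate 1, 2 or 3 the 79 became 131, 134 and 166. Zfp640 (ENSMUSG00000074830) had the largest difference in covered length, with 0.583, 0 and 0 kb in mfn2-/- and 51.5, 47.3 and 35.9 kb in HIF1dPA lists. C130026I21Rik, in the chromosome 1 window, had 0 kb against 26.7, 42.9 and 18.6 kb, and its neighbour A530032D15Rik 0 kb against 21.9, 10.7 and 35.8 kb. The pseudogene Rybp-ps had 0, 0 and 1.04 kb against 22.8, 22.3 and 17.9 kb. Zfp998 was covered in all lists, with 8.79, 8.45 and 6.32 kb in mfn2-/- and 26.2, 28.4 and 20.6 kb in HIF1dPA. In the other direction, Gm21847 had 29.0, 34.8 and 17.8 kb, Gm17019 25.9, 21.4 and 12.0 kb and Gm10354 9.09, 13.7 and 6.03 kb, each against 0 kb in HIF1dPA lists. Zfp873 had 7.03, 3.88 and 4.95 kb against 3.00, 1.78 and 1.33 kb, which did not overlap. Genes whose covered length was higher in every HIF1dPA list numbered 117 (4.06%) and those higher in every mfn2-/- list 45 (1.56%).

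Among gene families, the vomeronasal receptors, which detect pheromones, had a peak at more genes in every HIF1dPA than in every mfn2-/- list. The zinc finger genes differed in summed covered length. Vomeronasal and trace-amine receptor genes with a peak numbered 17, 14 and 19 in mfn2-/- and 73, 62 and 48 in HIF1dPA lists (exact permutation p = 0.1, 0.7 adjusted over the gene lists). Wild-type lists had 114, 127 and 111 and vhl-/- lists 36, 52 and 63, so the mfn2-/- lists were the lowest of the 4 genotypes. Of 139 such genes, 10 (7.19%) had a peak in all 3 HIF1dPA and 0 mfn2-/- lists, among them Vmn2r39, Vmn2r43 and Vmn1r73, 0 had the reverse, and 3 pseudogenes were in all 6. Over all genes these shares were 2.74% and 0.938%. At equal list length the counts were 15, 14 and 12 against 45, 23 and 31. Only 2 of 91 such genes then had a peak in all 3 HIF1dPA and 0 mfn2-/- lists, beside 46 of 1898 (2.42%) over all genes. The larger share of such genes was thus seen at full list length only. Zinc finger genes with a peak numbered 72, 61 and 70 in mfn2-/- and 73, 76 and 69 in HIF1dPA lists (exact permutation p = 0.4), and 29 of 139 were in all 6. With lists of equal length they numbered 61, 61 and 59 against 57, 51 and 58, higher in every mfn2-/- list (exact permutation p = 0.1, 0.525 adjusted). Peaks assigned to them covered 173, 158 and 160 kb against 297, 307 and 199 kb at full length, higher in every HIF1dPA list (exact permutation p = 0.1). Wild-type lists had 338 to 379 kb, above each HIF1dPA list, and vhl-/- lists 216 to 279 kb. Much of the difference between the groups lay at Zfp640 and Zfp998, given above, while Zfp873 went the other way. Only Zfp810, Zfp977 and Zfp804b (2.16%) were in all HIF1dPA and no mfn2-/- lists, and Zfp119b (0.719%) the reverse. Olfactory receptor genes overlapped, at 9, 8 and 17 against 27, 26 and 10 (exact permutation p = 0.2). The clustered protocadherins, adhesion molecules of neurons, had 2 genes in all HIF1dPA and 0 mfn2-/- lists, Pcdhb22 and Pcdhgc4, but 0 at equal list length.

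**Figure D4:**
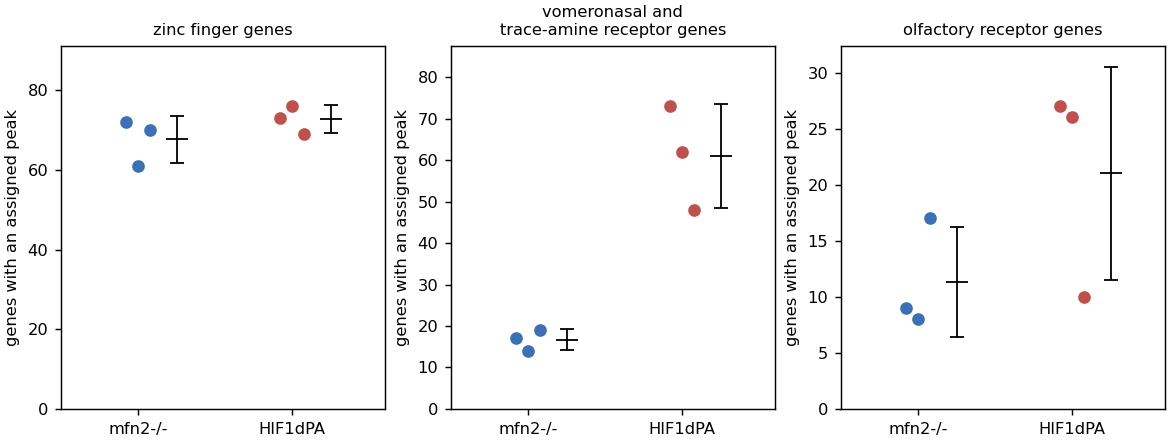
Number of zinc finger, vomeronasal and trace-amine receptor, and olfactory receptor genes with an assigned autosomal H3K9me3 peak in each of 3 mfn2-/- (blue) and 3 HIF1dPA (red) lists, with the mean and SD as bars. At the full list length plotted, vomeronasal receptor counts of 14 to 19 and 48 to 73 do not overlap and those of the other families do, whereas at equal list length the zinc finger counts do not overlap either.

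No gene of the hypoxia response, of H3K9 methylation or of muscle in the lists used separated the groups. Of 32 HIF1 target genes 4 had a peak in any of the 6 lists. P4ha1, a collagen prolyl hydroxylase subunit, was in 2 mfn2-/- and 0 HIF1dPA lists, and in 0 wild-type and 0 vhl-/- lists. P4ha2, its relative, was in 2 HIF1dPA and 0 mfn2-/- lists, and in all 3 wild-type and all 3 vhl-/- lists. Of 25 genes for writers, readers and erasers of H3K9 methylation 4 had one, and Atf7ip, a partner of SETDB1, was in 1 mfn2-/- and 2 HIF1dPA lists. The list of 11 myosin heavy chain genes, that of 9 satellite cell and myoblast markers and that of 15 mature myofiber markers had 0 genes with a peak. The labelled cell type could thus not be checked by its markers. Among 12 macrophage and leukocyte markers, 0 had a peak in each mfn2-/- list and 1, 1 and 2 in the HIF1dPA lists, these being Ly6c2 in all 3 and Adgre1 in 1. The defining marker Ptprc was at 0 peaks in all 6 lists. Peaks were assigned to 2 of 10 endothelial, 3 of 10 fibroblast and 1 of 9 Schwann and neuromuscular markers and to 2 of 14 myogenic regulators, and 0 genes of these lists separated the groups. Tdrd1, a germline gene of the piRNA pathway, was in 3 mfn2-/- and 2 HIF1dPA lists. Imprinted genes with a peak numbered 1, 2 and 6 against 2, 1 and 0.

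Shares of peaks by chromosome differed over much of the genome. Of 19 autosomes, 6 (31.6%) held a larger share in every HIF1dPA list and 7 (36.8%) in every mfn2-/- list, and each of these had an exact permutation p of 0.1, or 0.146 adjusted over the 19. Chromosome 13 held 7.10%, 6.54% and 7.50% of mfn2-/- and 16.1%, 15.6% and 17.4% of HIF1dPA peaks, with 6.02% to 6.39% in wild-type and 17.2% to 19.2% in vhl-/- lists. Chromosome 7 held 3.75%, 3.21% and 3.91% against 11.8%, 11.3% and 10.3%, and here wild-type lists, at 15.4% to 17.7%, were highest. Chromosome 15 held 6.11%, 6.54% and 7.96% of mfn2-/- and 1.69%, 1.39% and 1.40% of HIF1dPA peaks, and chromosome 10 held 10.2%, 8.97% and 8.88% against 4.15%, 3.02% and 3.59%. On both, the wild-type and vhl-/- lists lay with HIF1dPA, at 1.38% to 1.70% and 0.913% to 1.25% on chromosome 15 and at 4.20% to 4.23% and 3.21% to 3.95% on chromosome 10.

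**Figure D5:**
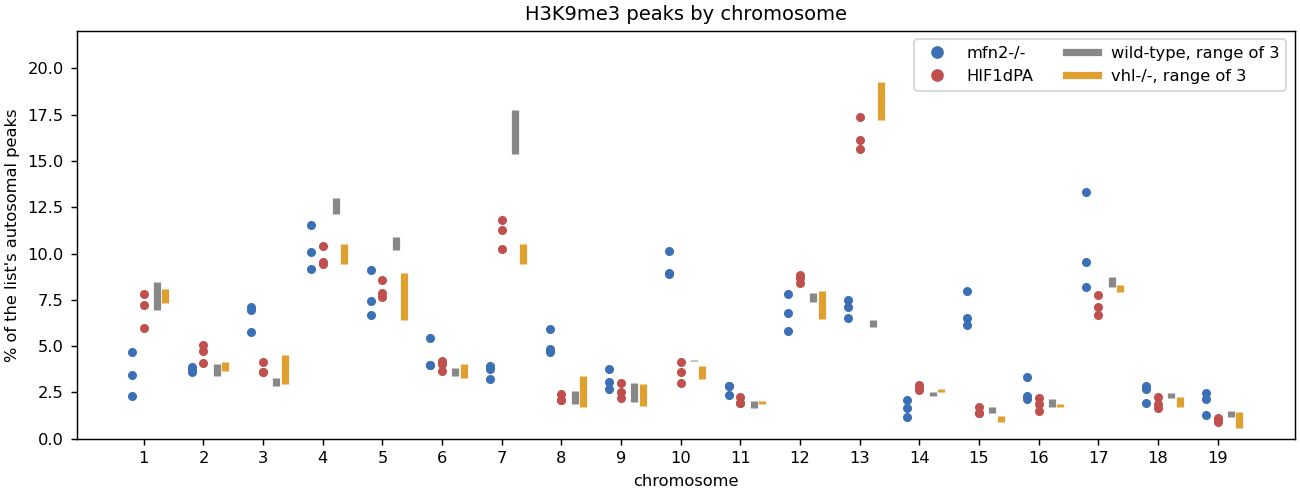
Percent of autosomal H3K9me3 peaks on each chromosome, with 1 point for each mfn2-/- (blue) and HIF1dPA (red) list and bars for the range of 3 wild-type (grey) and 3 vhl-/- (yellow) lists. Chromosomes 7 and 13 are higher in each HIF1dPA than in each mfn2-/- list, and chromosomes 3, 8, 10, 11 and 15 are higher in mfn2-/- than in any list of the other genotypes.

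Chromosome 11 was higher in each mfn2-/- list, at 2.37%, 2.82% and 2.83%, than in any other H3K9me3 list, where it reached 2.27%. It was left out of the following set. Chromosomes 3, 8, 10 and 15, set apart after the shares were seen, together held 28.2%, 27.2% and 28.5% of mfn2-/- and 12.1%, 10.4% and 10.7% of HIF1dPA peaks. The wild-type and vhl-/- lists had 10.7% to 11.4% and 10.8% to 11.5%. For H3K27me3, mfn2-/- lists had 16.5%, 16.5% and 15.9% there and HIF1dPA lists 18.4%, 20.1% and 17.1%, so the larger share in mfn2-/- was not seen with that mark. The mfn2-/- peaks on these chromosomes were spread over 162, 131 and 208 windows of 1 Mb, and 18.2%, 23.1% and 14.2% of them overlapped a peak of another mfn2-/- list, against 29.5%, 38.7% and 26.7% on the other 15 autosomes. In HIF1dPA lists these shares were 12.9%, 13.9% and 11.5% against 29.1%, 29.2% and 37.6%. The intron difference did not rest on these chromosomes, since on the other 15 the shares were 23.6%, 25.7% and 23.0% in mfn2-/- and 16.7%, 16.4% and 15.6% in HIF1dPA lists.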

How the data were processed

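ChIP-seq peak lists of H3K9me3, 1 for each library, were used as deposited. Per the submitters' processing notes, BWA 0.7.5, MACS (version not given) and deepTools 3.5.0 were used with mm10. The authors' lists give each peak a score, 10 times −log10 of its p-value and between 50 and 3100. It depends on depth, which is unknown, so it served only to rank or filter peaks within a list, and no counting interval was computed. Feature classes and assigned genes are the authors' own.

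The members and gene lists were chosen with earlier results of these data known. Peaks overlapping by at least 1 bp were merged into regions. The 3 mfn2-/- and 3 HIF1dPA lists were compared by exact permutation tests, two-sided, over all 20 arrangements. The smallest p is 0.1, so no comparison could pass 0.05. Benjamini-Hochberg adjustment was over classes, chromosomes or lists. Up to 10 regions or genes were named per direction, by mean score percentile within lists or by difference in covered length, and up to 6 genes per gene list. Other genes, 1 Mb windows, the 4 chromosomes and promoter windows were chosen after the values were seen. Alternatives were a score of at least 100, equal list length, joining within 1000 bp, other region and gene rules, the replicate block and leaving out each list. Of 2879 assigned genes, 2639 matched a RefSeq symbol. No pair of lists was identical. The scripts were tested on simulated data. Computation was in Python 3.11.15 with pandas 2.3.3 and numpy 2.4.6, and plots were drawn with matplotlib 3.10.9.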

Additional observations from a re-analysis of the deposited data

How the results depend on the processing

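Over 11 results and 132 alternative values, all 73 tested values kept their direction and none could pass 0.05, while 25 of 59 counts moved by over 1.5 times. With a score of at least 100, the regions found in every list of only mfn2-/-, only HIF1dPA or both fell to 8, 26 and 15, and the genes of only mfn2-/- or only HIF1dPA to 6 and 18. When a peak had to cover 50% of a region, the only-mfn2-/- and shared regions fell to 18 and 17. Joining regions within 500 kb gave 32 loci for HIF1dPA and 25 shared ones, and leaving out the 5 leading windows, an alternative added after the data were seen, left 33 regions for HIF1dPA. Genes of only HIF1dPA fell to 46 at equal list length and to 34 without distal peaks, and those of only mfn2-/- to 15 without them.

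Leaving out each list in turn gave 37 to 79 regions of only mfn2-/-, 97 to 182 of only HIF1dPA, 51 to 64 shared, and 35 to 104 and 88 to 166 genes, since a set then needed fewer lists. The ratio of peak numbers ranged from 1.22 to 1.58, that of covered length from 1.47 to 1.76, and the intron difference from -8.16 to -7.07 points. Lists with equal replicate numbers did not deviate together (correlations of -0.03, 0.03 and -0.07). This cannot show whether equal numbers share an animal or batch, which the labels do not say. With the replicate block, whose smallest p is 0.25, exact permutation p was 0.5 for the peak number (ratio 1.39) and the promoter share, and 0.25 for covered length, the intron share (-7.57 points), the distal share and similarity, and no call changed. Peak number at equal list length is fixed and was not run. Depth is unknown and limits every statement on a peak that is not listed.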
